A study of Gallus gallus with 3 samples.

Results

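AMH, INHA, INHBA, INHBB and FST encode anti-Müllerian hormone, the alpha, beta A and beta B subunits of the inhibins and activins, and follistatin. Each was taken as the row of the deposited expression files that carries its name, and each symbol had 1 row, so all 5 of 5 genes were found among 19309 genes with a value. They were followed across 3 libraries of hen granulosa cells, the somatic cells around the oocyte, with 1 library per stage. The 6 mm library came from follicles of 6 mm that had not been selected for rapid growth, from hens labelled 10 to 15 months old. The F5 library came from early preovulatory follicles (hens labelled 10 to 16 months) and the F1 library from the follicle next to ovulate (10 to 17 months). No treatment or genotype was labelled for any of them, and the sources used here do not give the number of hens or follicles behind a library. Hen, library and stage therefore cannot be told apart, no difference has a replicate check, and no test was possible.

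Inhibin is a dimer of the alpha subunit with a beta subunit, and it lowers the release of follicle-stimulating hormone by the pituitary. Activin is a dimer of beta subunits alone, and it stimulates that release and also acts locally in the ovary. Follistatin binds activin and blocks it, while AMH, a more distant relative, is known from the granulosa cells of small follicles. In the hen, inhibin A (with beta A) is known as the product of large preovulatory follicles and inhibin B (with beta B) as that of smaller ones.

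Levels are FPKM, reads scaled to the length of the gene and the size of the library, which can be compared between genes. Library totals, inferred from the values as the smallest that fit, were 14086626 to 14923359 reads. Whole reads behind each FPKM were recovered from the values, and each range in brackets is an exact 95% interval for counting error, leaving out any other. Of 8 granulosa markers, all 8 had at least 1 FPKM in the 6 mm and F5 libraries and 7 in F1, where AMH itself stayed below. Their summed FPKM, AMH included, was 1481 in 6 mm, 3625 in F5 and 3579 in F1. Marker sums of other cells were highest in 6 mm for each list but that of leukocytes, which was highest in F1. The summed FPKM of 13 theca, stroma and smooth muscle markers was 1052 in 6 mm, 21.8 in F5 and 17.8 in F1, with 0, 5 and 3 of them at 0. For 4 markers of surface epithelium it was 235, 23.7 and 3.36 (0, 1 and 1 at 0), for 6 of endothelium 68.8, 13.1 and 2.68 (0, 0 and 2 at 0), and for the 5 oocyte markers found, of 6 listed, 42.6, 10.4 and 0.457 (0, 0 and 1 at 0). For 4 leukocyte markers it was 81.2, 42.6 and 133, mostly CD74, and for 3 red cell markers 5.22, 0 and 0. Of the 4 leukocyte markers, 3 reached 1 FPKM in 6 mm, 2 in F5 and 1 in F1. Of 3 compared by log2(FPKM + 1) as deposited, 2 were at least 2-fold lower in F1 than in 6 mm and none higher. Of all genes, 32.8% were lower and 7.45% higher there. In such bulk RNA, fewer cells of a type and less RNA per cell cannot be told apart.

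INHA, the subunit that makes a dimer an inhibin, was the most abundant of the 5 genes in F5 and F1. Its row (ENSGALG00000011234) lies on chromosome 7 from 21555004 to 21556682, minus strand, in coordinates of the files (the sources used here name no genome build). Its FPKM was 132 in 6 mm (124 to 141), 4631 in F5 (4581 to 4682) and 3013 in F1 (2972 to 3054). It ranked 468th of all genes in 6 mm, 15th in F5 and 24th in F1. From 6 mm to F5 it was 35.1-fold higher (32.9 to 37.4), and only 9 of 12611 genes, INHA included, rose as far by log2(FPKM + 1). From F5 to F1 it was 1.54-fold lower (1.51 to 1.56), a log2 difference of -0.62 beside a median of -0.53 over all genes. After scaling by median ratios or upper quartiles, which moves that median to 0.02 and -0.02, the INHA difference was -0.0021 and -0.04. Against 6 mm, F1 stood 22.8-fold higher (21.4 to 24.4).

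INHBB, the beta subunit of inhibin B and activin B, rose and then dropped almost to nothing. Its row (ENSGALG00000028770) is a single stretch of 777 bases on chromosome 7, 25068118 to 25068894, plus strand, and its FPKM rests on reads in that stretch alone. It stood at 321 in 6 mm (311 to 332), 893 in F5 (876 to 911) and 1.74 in F1 (1.05 to 2.71). The F1 value comes from at least 19 reads, against at least 9811 in F5. The step from 6 mm to F5 was 2.78-fold upward (2.68 to 2.89). The step from F5 to F1 was 515-fold downward (329 to 855), and of 11758 genes compared there no other fell as far by log2(FPKM + 1). F1 also lay 185-fold below 6 mm (118 to 308). On the same strand, 2487 bases before the INHBB row, an unnamed entry of the authors (Novel01259) stood at 6.05 in 6 mm and 12.8 in F5 and had no reads in F1.

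INHBA, the beta subunit of inhibin A and activin A, rose at both steps, and so moved against INHBB only from F5 to F1. Its row (ENSGALG00000012327) lies on chromosome 2, 51170907 to 51183221, minus strand. It was the lowest of the 5 genes in 6 mm at 1.09 (0.720 to 1.59, at least 27 reads) and in F5 at 9.48 (8.27 to 10.8). In F1 it reached 53.3 (50.4 to 56.4) and moved from rank 11888 in 6 mm to 1156 of all genes. It was 8.68-fold higher in F5 than in 6 mm (5.81 to 13.5), 5.63-fold higher in F1 than in F5 (4.88 to 6.52), and 48.9-fold higher in F1 than in 6 mm (33.4 to 74.4). Its upward steps both passed 2-fold, as did those of 92 of 12812 genes (0.718%) that reached 1 FPKM in any of the libraries.

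**Figure D1:**
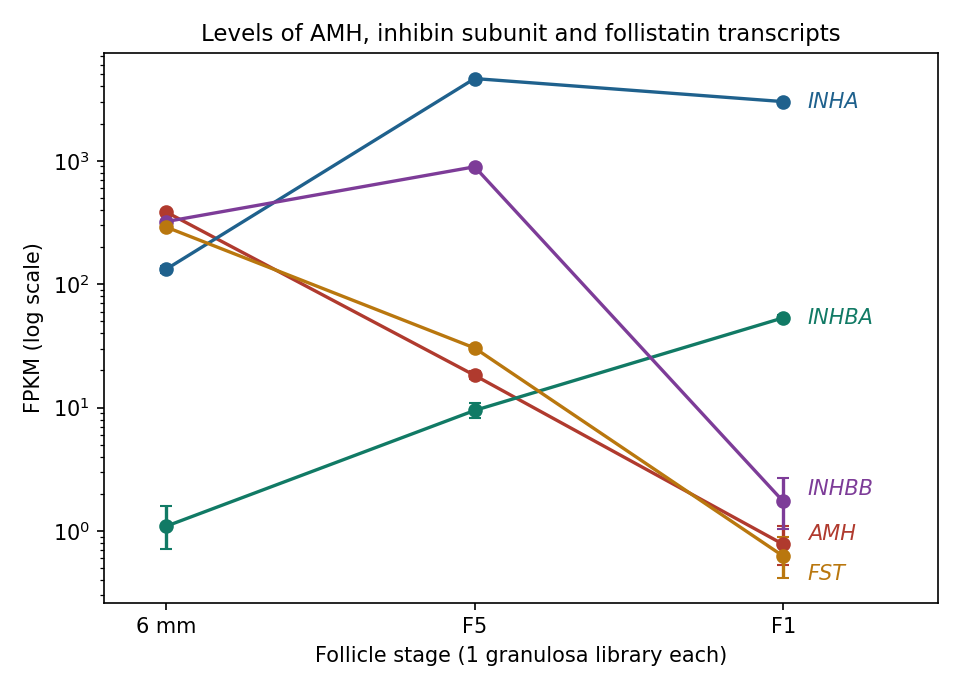
FPKM on a log axis (vertical) of the 5 genes in the 6 mm, F5 and F1 granulosa libraries (horizontal), 1 library per stage, with bars for the exact 95% counting interval. INHA rose from 132 to 4631 and stayed at 3013, INHBA climbed from 1.09 to 53.3, and INHBB, AMH and FST ended at 1.74, 0.779 and 0.625.

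The beta subunits therefore changed places between F5 and F1. Of the summed FPKM of INHBA and INHBB, INHBA made up 0.339% in 6 mm (0.223 to 0.493), 1.05% in F5 (0.916 to 1.20) and 96.8% in F1 (95.1 to 98.1). Summed, the beta subunits stood at 322 FPKM in the 6 mm library, at 903 in F5 and at 55.1 in F1. These are transcript levels, and how much dimer protein they gave was not measured.

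The ratio of INHA to its partners shifted at both steps. INHA to INHBB was 0.411 in 6 mm (0.383 to 0.441), so beta B transcripts outnumbered alpha transcripts there. It was 5.19 in F5 (5.07 to 5.30) and 1736 in F1 (1111 to 2883). INHA to INHBA was 121 in 6 mm (82.6 to 184), 489 in F5 (428 to 560.2) and 56.5 in F1 (53.3 to 59.9). Against both beta subunits together, INHA stood at 0.410 in 6 mm (0.364 to 0.461), 5.13 in F5 (4.93 to 5.33) and 54.7 in F1 (49.4 to 60.4). The 3 intervals of each of these ratios do not overlap, which speaks to counting error only. Ratios within a library do not depend on how libraries are scaled, but they do depend on gene length. With the length column of the files, which is not the length behind the FPKM values, INHA to INHBB was 0.277 in 6 mm and 3.50 in F5, on the same sides of 1. INHA to INHBA was then 50.7 in 6 mm, 205 in F5 and 23.7 in F1, in the same order. These length-column ratios use the smallest reads that fit the values. If the true INHA reads are a whole multiple of those, other reads unchanged, the ratios would be higher by that multiple. The INHA row spans 1679 bases, which bounds the multiple of 495 bases that its length can be. Within that span, INHA to INHBB in 6 mm stays below 1.

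**Figure D2:**
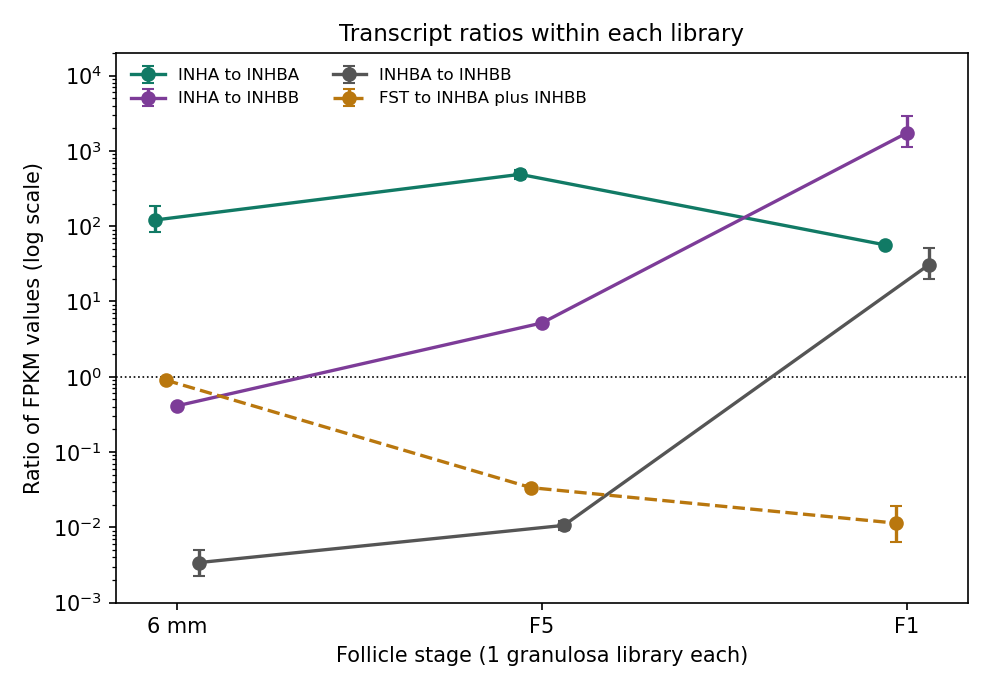
Ratio of FPKM values within a library on a log axis (vertical) for 3 pairs of inhibin subunits and for FST against the summed beta subunits, by stage (horizontal), with 95% counting intervals and a dotted line at 1. INHA to INHBB crossed 1 between 6 mm (0.411) and F5 (5.19), and INHBA to INHBB crossed it between F5 (0.0106) and F1 (30.7).

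FST, the activin antagonist, fell at both steps. Its row (ENSGALG00000014908) lies on chromosome Z, 15930691 to 15938408, plus strand. Its FPKM was 290.1 in 6 mm (285 to 295), 30.4 in F5 (28.8 to 32.0) and 0.625 in F1 (0.419 to 0.898, at least 29 reads). It was 9.56-fold lower in F5 than in 6 mm (9.05 to 10.1), 48.5-fold lower in F1 than in F5 (33.7 to 72.8) and 464-fold lower in F1 than in 6 mm (323 to 693). Relative to the summed beta subunits it was 0.900 in 6 mm (0.847 to 0.957), 0.0336 in F5 (0.0307 to 0.0368) and 0.0114 in F1 (0.00636 to 0.0190). Whether follistatin transcripts were fewer than those of the beta subunits in 6 mm depends on the length used, since the length column gave 2.09 there and 0.0779 in F5. FSTL3, another activin-binding protein of the follistatin family, was at 0.195 in 6 mm and had no reads in F5 or F1.

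AMH fell at both steps too. Its row (ENSGALG00000024368) lies on chromosome 28, 1956623 to 1960825, minus strand. At 384 in 6 mm (378 to 390.3) it was the most abundant of the 5 genes there and ranked 131st of all. It was at 18.2 in F5 (16.9 to 19.6) and 0.779 in F1 (0.529 to 1.11, at least 31 reads). The steps were 21.1-fold downward (19.6 to 22.7) and 23.4-fold downward (16.3 to 34.7), and F1 was 493-fold below 6 mm (347 to 726). AMH to INHA went from 2.91 in 6 mm (2.73 to 3.11) to 0.00394 in F5 (0.00365 to 0.00424). AMH and FST are among 333 of 12812 genes (2.60%) at least 2-fold lower at each of these steps. The marker sums of stroma, surface epithelium, endothelium and oocyte given above fell from 6 mm to F5 and to F1 as well, and their part in the lower AMH and FST was not tested. The 8 granulosa markers, AMH among them, were mixed. In F5, 4 were 2-fold higher than in 6 mm and 1, AMH itself, was lower. In F1, 2 were higher and 3 lower than in F5, and 4 higher and 2 lower than in 6 mm. AMH is among the lower ones in each of these. Of all genes, 7.64%, 5.09% and 7.45% were higher and 10.8%, 22.9% and 32.8% lower in these comparisons. The markers lower in F1 than in F5 were AMH, WNT4 and FSHR, and those higher were the steroidogenic genes STAR and CYP11A1. With median-ratio scaling, 4 of the markers were higher and 2 lower in F1 than in F5, beside 1348 and 1503 of 12131 genes.

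In terms of log2(FPKM + 1), taking genes that reached 1 FPKM in one of the libraries compared, a difference of 1 is counted as 2-fold. All 5 genes met that filter in each comparison, AMH and FST only through 6 mm or F5 where F1 was compared. Between F5 and 6 mm, INHA, INHBA and INHBB were at least 2-fold higher, where 7.64% of 12611 genes were, and AMH and FST lower, where 10.8% were. All but INHBB passed 4-fold, against 4.04% of genes. Between F1 and F5, INHBA was higher (background 5.09%), INHBB, AMH and FST lower (22.9%), and INHA under 2-fold. The same 4 passed 4-fold, against 6.63% of 11758 genes. Between F1 and 6 mm, INHA and INHBA were higher (7.45%), and INHBB, AMH and FST lower (32.8%), all past 4-fold (12.1% of 12482 genes). The median size of the difference, whatever its direction, was 3.21 for the 5 genes and 0.42 for all genes in the first comparison, 3.43 and 0.65 in the second, and 6.88 and 0.82 in the third. The comparisons share libraries and are not independent, and the 5 genes were chosen with results of these data known.

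**Figure D3:**
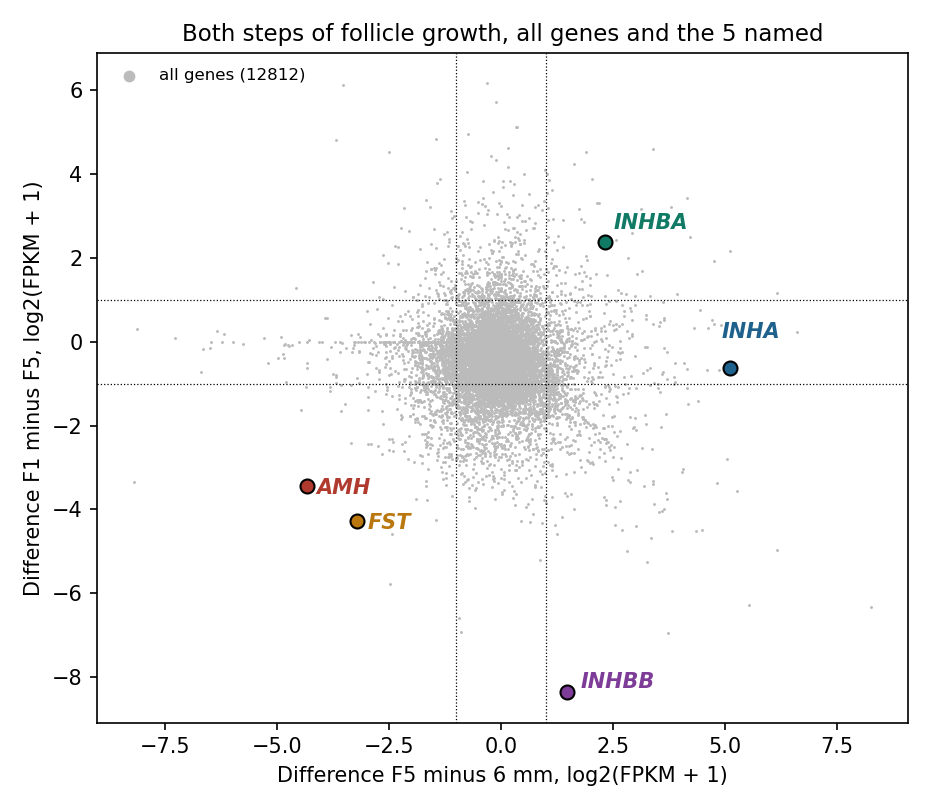
Difference of log2(FPKM + 1) between F5 and 6 mm (horizontal) against that between F1 and F5 (vertical) for 12812 genes (grey) and the 5 genes (coloured), with dotted lines at 2-fold. AMH (-4.32 and -3.43) and FST (-3.21 and -4.27) lie low on both axes, INHBA (2.32 and 2.37) high on both, INHBB (1.47 and -8.35) at the lower edge, and INHA (5.12 and -0.62) far to the right.

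The hormones share an annotation that their choice did not use. AMH, INHA, INHBA and INHBB carry the C-terminal domain of the transforming growth factor-beta family and the cystine-knot fold in the files, whereas FST carries Kazal and follistatin domains. In all, 27 genes in the files carry that C-terminal domain, and 12 had at least 1 FPKM in 6 mm, 9 did in F5 and 5 did in F1. Of all 19309 genes, 12070 did in 6 mm, 11432 in F5 and 10283 in F1. AMH and the inhibin subunits held 91.2% of the summed FPKM of these 27 genes in 6 mm, 99.0% in F5 and 99.1% in F1. AMH ranked first of them in 6 mm, and INHA first in F5 and F1. In F1, INHA alone held 3013 of the 3097 FPKM summed, while INHBB ranked 5th and AMH 7th.

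Other ligands of the family stayed below INHA in each library, but not below all 4 hormone genes. For example, TGFB3 and BMP15 exceeded INHBA in 6 mm, and TGFB3 exceeded AMH and INHBA in F5, and AMH and INHBB in F1. Of 19 listed, 12 were found by name, and 6 were compared between F5 and 6 mm. Of these, 1 was higher and 4 lower at 2-fold (median -1.34, all genes -0.13), beside 7.64% and 10.8% of all genes. BMP15, an oocyte factor, was at 18.3 in 6 mm, 5.61 in F5 and 0.193 in F1, and TGFB3 at 16.8, 22.0 and 8.83. BMP2 was highest in F5 at 8.54, against 2.54 in 6 mm and 0.898 in F1. TGFB2 and BMP6 were at 4.82 and 3.77 in 6 mm and below 1 afterwards. In F1 against F5, all 3 compared were lower (median -2.33, all genes -0.53), beside 22.9% of all genes. TGFB3 was under 2-fold there after median-ratio or upper-quartile scaling. Against 6 mm, 4 of 6 were lower in F1 and none higher (median -1.89, all genes -0.64), beside 32.8% and 7.45% of all genes. With libraries scaled to the same sum, 6 were lower, beside 5462 of 12386 genes. GDF9, the oocyte's partner of BMP15, was at 2.21 in 6 mm and had no reads in F1.

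Precursors of the family are cut to active hormone by proprotein convertases. FURIN, the most abundant here, was at 99.8 in 6 mm, 107 in F5 and 71.5 in F1. PCSK7 was at 17.0, 41.0 and 70.1, higher by 4.13-fold in F1 than in 6 mm (3.83 to 4.44). PCSK2, known from neuroendocrine cells, went from 25.7 to 14.5 and 3.33. PCSK5, which also cuts family precursors, was at 8.33, 6.03 and 2.98. Of the 4 convertases compared, 1 was 2-fold higher and none lower in F5 against 6 mm, beside 7.64% and 10.8% of all genes. In F1 against F5, 1 was lower and none higher (median -0.70, all genes -0.53, of which 22.9% were lower). Median-ratio or upper-quartile scaling gave 1 higher and 1 lower there, the higher being PCSK7. Of all genes, 1348 of 12131 were then higher and 1503 lower with the first scaling, and 1263 of 12044 and 1525 with the second. Against 6 mm, F1 had 1 higher and 2 lower, beside 7.45% and 32.8% of all genes. Of the lower ones, PCSK5 fell under 2-fold after median-ratio or upper-quartile scaling.

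On the log2(FPKM + 1) scale, none of the receptors and co-receptors of the family that were compared was 2-fold higher as deposited. Up to 3 were lower. Of 10 compared between F5 and 6 mm none was 2-fold higher and 2 were lower (median -0.16), beside 10.8% of all genes lower and a median of -0.13. Those lower were ENG and TGFBR2, neither of them an activin receptor. Of 9 between F1 and F5 none was higher and 1 lower (median -0.05), beside 22.9% of all genes lower and a median of -0.53. Of 9 between F1 and 6 mm none was higher and 3 lower (median -0.11), beside 32.8% of all genes lower and a median of -0.64. The activin receptors ACVR1B and ACVR2A, singled out after their values were seen, were at 19.9 and 18.7 in 6 mm, 19.0 and 18.4 in F5, and 18.3 and 19.6 in F1. These values are as deposited. Another activin receptor, ACVR2B, was nearly absent at 0.135 in 6 mm, 0 in F5 and 0.0952 in F1. TGFBR3 (betaglycan), which raises the affinity of inhibin for activin receptors, was at 4.01, 3.19 and 5.4. ENG, an endothelial co-receptor, fell from 16.9 to 3.98 and 0.330, beside the endothelial marker sum of 68.8, 13.1 and 2.68, whose part was not tested. TGFBR2 was at 1.51 in 6 mm and had no reads in F5. ACVR1 was at 16.5, 8.80 and 6.51, lower in F1 than in 6 mm by 2.54-fold (2.19 to 2.95), with a log2 difference of -1.22 that shrank to -0.56 under median-ratio scaling. BMPR1A stood at 8.54, 5.66 and 5.60, and ACVR1C at 0.622, 1.33 and 0.619. The medians of the list in F1 comparisons were -0.05 and -0.11 as deposited. They were 0.53 and 0.46 under median-ratio scaling, where those of all genes were 0.02 and 0.02. Under that scaling 1 of 9 was 2-fold higher and 1 lower in F1 than in F5, beside 1348 and 1503 of 12131 genes. Against 6 mm 2 of 10 were higher and 2 lower, beside 2018 and 2345 of 12752 genes. AMHR2, the receptor of AMH, and TGFBR1 were not found by name and are not analysed here.

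Transcripts of the SMAD proteins that carry activin signals rose at different steps. SMAD2 was at 221 in 6 mm, 1701 in F5 and 1875 in F1, 7.68-fold higher at the first step (7.51 to 7.86). SMAD3 was at 29.0, 33.4 and 176, 5.26-fold higher at the second (5.0 to 5.55). SMAD5, which carries signals of AMH and bone morphogenetic proteins, was at 70.9, 176 and 202. ZFYVE9, which anchors SMAD2 and SMAD3 at receptors, was at 18.6, 46.5 and 62.4. SMURF1, a ubiquitin ligase of the pathway, reached 33.9 in F1 from 10.8 in 6 mm, and SKIL, a repressor of SMAD function, was at 5.77, 6.28 and 2.21. Of 10 transducers compared, 3 were higher and 1 lower in F5 than in 6 mm, beside 7.64% and 10.8% of all genes. With median-ratio scaling these were 3 and 0, beside 1133 and 1212 of 12674 genes. In F1 against 6 mm, 5 were higher and 1 lower, beside 7.45% and 32.8% of all genes (median 0.65, all genes -0.64). In F1 against F5, 2 of 9 were higher and 1 lower, beside 5.09% and 22.9% of all genes. There SMURF1 fell under 2-fold when libraries were scaled to the same sum (0.93), and SKIL did under median-ratio or upper-quartile scaling. Median-ratio and upper-quartile scaling also brought SKIL in F1 against 6 mm under 2-fold.

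Of the antagonists other than FST, how many were lower in F1 depended on the scaling. Between F1 and F5, 6 of 9 were at least 2-fold lower and 1 higher (median -1.46, all genes -0.53), or 3 lower and 1 higher after median-ratio or upper-quartile scaling. Of all genes, 22.9% were lower and 5.09% higher there as deposited. After median-ratio scaling 1503 of 12131 genes were lower and 1348 higher, and after upper-quartile scaling 1525 of 12044 were lower and 1263 higher. Between F5 and 6 mm 2 of 11 were lower and 1 higher, beside 10.8% and 7.64% of all genes. Between F1 and 6 mm 6 of 11 were lower and 1 higher, beside 32.8% and 7.45% of all genes as deposited. After median-ratio or upper-quartile scaling, 5 were lower and 1 higher in F1 than in 6 mm. Of all genes, 2345 of 12752 were lower and 2018 higher there with the first scaling, and 2492 of 12719 and 1792 with the second. SMAD7, which blocks activated receptors, has a pair of rows. The more abundant went from 205 in 6 mm to 107 in F5 and 0.122 in F1, from at least 3 reads there. The other SMAD7 row is not described here. FSTL1, a relative of follistatin, was at 400.2, 473 and 62.3, and NBL1, a bone morphogenetic protein antagonist, at 102, 24.7 and 7.98. BAMBI, a decoy receptor, peaked in F5 at 82.95, 4.50-fold over 6 mm (4.20 to 4.83), and BMPER was at 2.75, 0.219 and 0.0825. GREM1, which binds bone morphogenetic proteins, rose against this direction to 23.6 in F1 from 1.42 in F5, 16.6-fold (10.2 to 29.0).

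**Figure D4:**
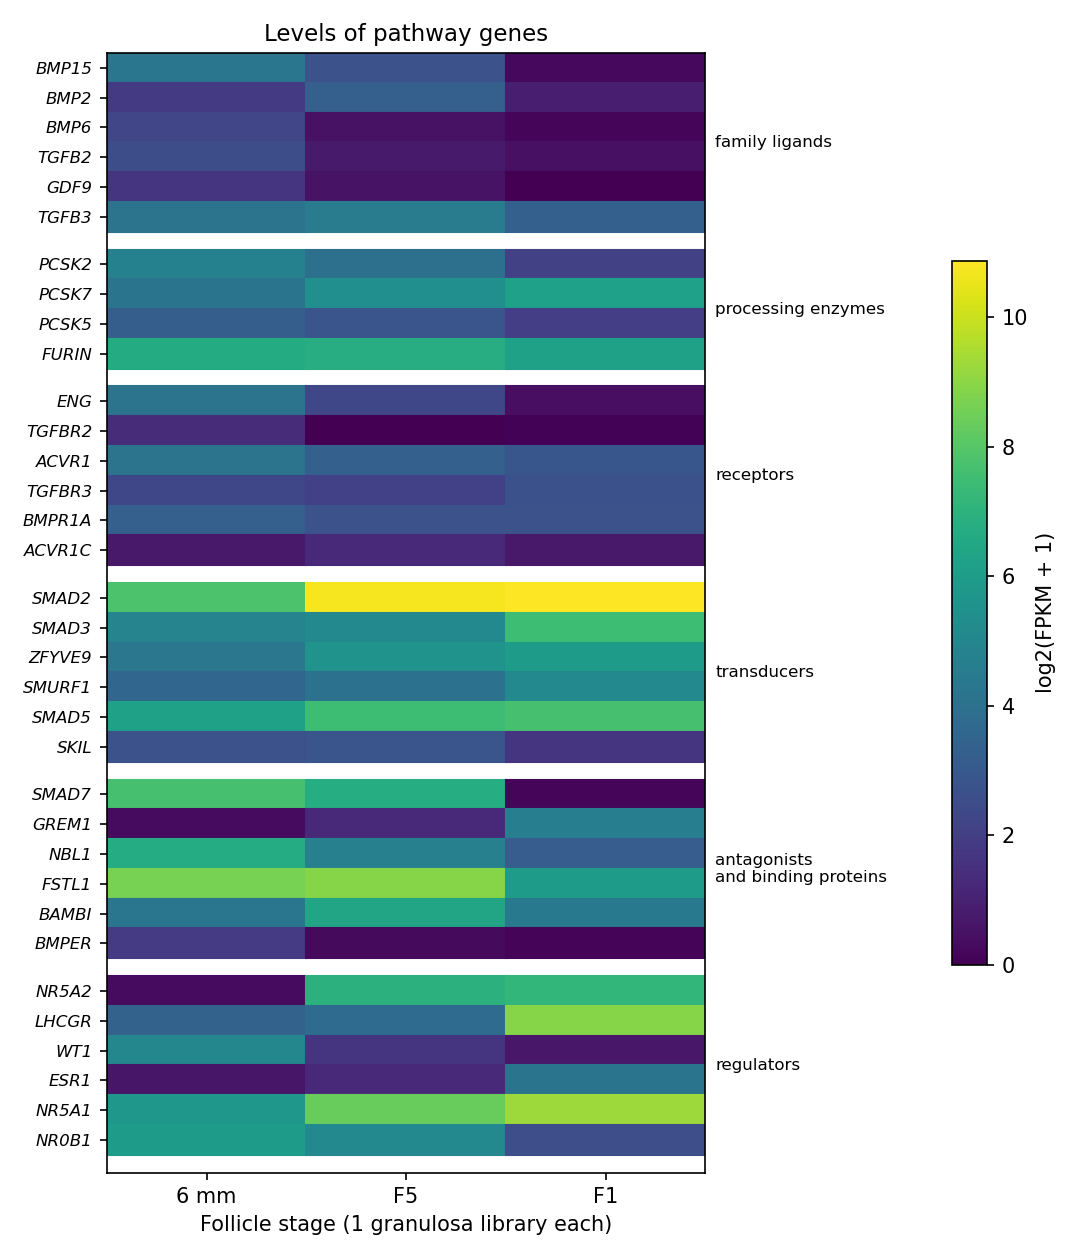
Levels as log2(FPKM + 1) (colour) of the genes named from each pathway list (vertical) in the 6 mm, F5 and F1 libraries (horizontal), 1 library per stage. SMAD2 was high from F5 on (1701 and 1875 FPKM), SMAD3 and GREM1 in F1 (176 and 23.6), and BAMBI in F5 (82.95). SMAD7 (its more abundant row) and WT1 were low in F1 (0.122 and 0.579).

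Among receptors and transcription factors known to act on AMH or inhibin genes, or to mark granulosa cells, 4 of 18 were 2-fold higher and 3 lower in F5 than in 6 mm (median 0.39), beside 7.64% and 10.8% of all genes (median -0.13). WT1 was at 31.7, 2.21 and 0.579, 14.3-fold lower in F5 than in 6 mm (11.8 to 17.4). NR5A1, which activates AMH and INHA in mammals, was at 53.5, 323 and 628, and NR5A2, its close relative, at 0.255, 123 and 143. NR0B1, which represses NR5A1, was at 61.2, 33.6 and 4.88. LHCGR, the receptor of luteinizing hormone, was at 9.58, 12.6 and 472, and ESR1, an oestrogen receptor, at 0.521, 1.34 and 17.0. In F1, 3 of 16 were higher than in F5 and 3 lower, beside 5.09% and 22.9% of all genes. Median-ratio scaling gave 6 higher and 1 lower there, beside 1348 and 1503 of 12131 genes. Upper-quartile scaling gave 5 and 1, beside 1263 and 1525 of 12044 genes. Against 6 mm, 8 of 19 were higher and 4 lower, beside 7.45% and 32.8% of all genes. With median-ratio scaling these were 10 and 4, beside 2018 and 2345 of 12752 genes. WT1 in F1 against F5 (-1.02) was under 2-fold after each of the 4 other scalings.

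The genes whose steps lay closest to each of the 5 were sought among 6259 other named genes that reached 10 FPKM in any library, by the summed distance of both steps on the log2(FPKM + 1) scale over 3 libraries. For INHA they were SORL1, a sorting receptor (distance 0.29), SV2A (0.58), PROCA1 (1.01), SRL (1.13) and INF2 (1.24). For INHBA they were LTBP2, a matrix protein (0.30), SORCS2 (0.75), TYRP1 (0.81), MDGA2 (0.83) and the steroid enzyme HSD3B2 (0.90). INHBB had no close match, its nearest being WNT4, a signalling ligand (3.66), CTHRC1 (3.76), SMAD7 (4.18), ESYT3 (4.24) and the growth factor IGF2 (4.28). FST lay nearest to ZP2, an egg coat protein (1.10), then SGK2 (1.78), WNT6 (1.85), SLC22A31 (2.0) and MCAM (2.07). AMH lay nearest to the keratin KRT19 (1.95), SLC22A31 (2.0), MAP1B (2.35), SOD3 (2.37) and the peptide EDN1 (2.42). KRT19 is among the epithelial markers summed above. LTBP2 was at 4.45, 31.5 and 173 in 6 mm, F5 and F1, and WNT4 at 141, 1885 and 14.3.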

How the data were processed

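Poly-A RNA was copied with random hexamers, per the labels' protocols. The authors deposited FPKM values per gene, 1 file per library. Reads were aligned with TopHat2 2.0.12 and counted with HTSeq 0.6.1, per the submitters' processing notes. The genome build, and whether strand was used in counting, are not given in the sources used here. In each file 2 lines without a value were left out. The FPKM values of 17019 genes above 0 fitted whole reads over a whole length (largest relative deviation 5.1e-15). The smallest such reads, 93.8% to 94.8% of the library totals inferred from the values, were used, so intervals may be too wide. For INHA this length, 495 bases, is under the 734 bases listed in the other column the authors deposited, so its true reads may be a whole multiple. Intervals are Poisson or conditional binomial (scipy 1.17.1), and those against summed beta subunits are joint over 3 terms. Differences used log2(FPKM + 1), which understates those of low genes. List genes were matched by symbol, else by an older name in RefSeq's table for GRCg7b, and up to 6 per list were named by the size of their difference. The methods were checked on simulated libraries. The 5 genes and all lists were chosen with earlier results of these data known.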

Additional observations from a re-analysis of the deposited data

How the results depend on the processing

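Of 120 values of the 15 differences of the 5 genes (pseudocounts of 0.1 and 5, filters of none and an FPKM of 5, and 4 scalings), 120 kept their sign and 120 their side of 2-fold. The filters only choose which genes are compared and cannot change a gene's difference, so the values under them were fixed in advance. INHA in F1 against F5 ranged from -0.74 to -0.0021, INHBB there from -8.93 to -7.06, and INHBA in F5 against 6 mm from 1.25 to 3.01. The counts of the 5 genes past 2-fold stayed at 5, 4 and 5 under each of these 8 alternatives. With a pseudocount of 5, the number of all genes past 2-fold fell from 2320 to 938 between F5 and 6 mm, from 3296 to 1424 between F1 and F5, and from 5030 to 2373 between F1 and 6 mm, since that pseudocount shrinks the differences of low genes.

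The background moved with scaling. Genes 2-fold lower were 58.4% of those different between F5 and 6 mm, 70.1% with libraries scaled to the same sum and 48.6% with a pseudocount of 5. Between F1 and F5 they were 81.8%, but 52.7% with median-ratio and 54.7% with upper-quartile scaling, and between F1 and 6 mm 81.5%, but 53.7% and 58.2%.

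With the length column in place of the length behind the values, INHA to INHBA was 50.7 in 6 mm, 205 in F5 and 23.7 in F1, INHA to INHBB was 0.277 in 6 mm and 3.50 in F5, and FST to the summed beta subunits was 2.09 in 6 mm and 0.0779 in F5. The INHA ratios here use the smallest reads that fit, and would be higher by the same multiple if its true reads are a multiple of those. Which length is right was not tested. Each symbol had 1 row, so summing rows changed no ratio. No paired analysis was possible because each stage has 1 library, and for the same reason no library could be left out of a comparison. Depth limits INHBB, AMH and FST in F1, which rest on at least 19, 31 and 29 reads, and INHBA in 6 mm, on at least 27.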

Other observations

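Within 15000 bases of the INHA row lie 4 other genes, and 3 of them were also higher in F5 than in 6 mm, where 7.64% of all genes were at least 2-fold higher. This window was chosen after the values were seen. GJD3, a gap junction gene 1586 bases away on the other strand, was at 6.4 in 6 mm, 96.6 in F5 and 6.22 in F1. OBSL1, a cytoskeletal adaptor gene 1812 bases away on the other strand, was at 3.06, 44.97 and 20.3. TMEM198, a membrane protein gene on the strand of INHA and 14428 bases away, was at 3.98, 38.5 and 30.1. The fourth, STK11IP, was at 6.65, 6.35 and 2.58. Of these, TMEM198 kept most of its F5 level in F1, as INHA did, while GJD3 returned to its 6 mm level. The sources used here do not say whether reads were assigned by strand. The AMH row had SF3A2, a splicing factor gene, 1237 bases away, at 141, 76.0 and 56.2, and AMH fell much further than that over the same libraries. No other gene lay within that window of INHBA or FST.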
